A study of Mus musculus with 16 samples.

Results

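The measurements cover 12 of the 16 sequenced samples of a mouse study of Tex10 in male germ cells. They are the sorted spermatogonia, MI spermatocytes and spermatids, with 2 libraries of each cell type and genotype, so that 6 Tex10-deficient libraries stood against 6 wild-type libraries. The groups were taken from the sample titles, and the change that the 3 cell types share was estimated with the cell type as a block. The 4 libraries titled MII spermatocytes were left out of this estimate because they carry RNA of somatic testis cells, and they are used below only as further samples. The 9 Leydig cell markers summed to 1060 to 1800 FPKM in them and to 245 FPKM or less in the 12 libraries. The 12 are not free of somatic RNA. The 14 macrophage and myeloid markers summed to 331 to 830 FPKM in the spermatogonia libraries and to 395 to 789 FPKM in the MII libraries. Late germ cell markers of the MII libraries also differed between the genotypes, as given below with the counts by overlap. All cells came from testes of male C57BL/6J mice aged 8 weeks. The deficient mice had the genotype Tex10f/-; Stra8iCre, that is, 1 floxed and 1 null Tex10 allele with a Cre recombinase driven by the Stra8 promoter, which is active from spermatogonia onwards. The controls are labelled wildtype, so the Cre transgene and the null allele differ between the groups together with the loss of Tex10 and cannot be told apart from it. Somatic cells of the deficient testis keep the floxed allele and carry the null allele.

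TEX10 is a nuclear protein that works in a complex with PELP1, WDR18, SENP3, LAS1L and NOL9. This complex joins the large AAA ATPase MDN1 on precursors of the large ribosomal subunit, where an internal spacer of the ribosomal RNA is cut and trimmed. In pluripotent stem cells TEX10 is also known as a partner of SOX2 at active enhancers. In the testis, germ cells pass from dividing spermatogonia through the long meiotic prophase to haploid round spermatids, and most genes change their level along this path, so a change shared by all 3 stages was sought within each stage.

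Among 12935 genes tested across the 3 cell types, 3 were called. Tex10 itself fell, the lncRNA gene 9430065F17Rik fell, and Apoc2, which encodes the apolipoprotein C-II that activates lipoprotein lipase, rose. The calls were 0.0232% of the genes tested, with 0.00773% called higher and 0.0155% called lower, by limma at a Benjamini-Hochberg adjusted p under 0.05 over all genes. Levels are given as FPKM (fragments scaled to transcript length and to the mapped fragments of a library). Changes are Tex10-deficient minus wild type on the log2(FPKM + 1) scale, which understates the change of low genes. Read numbers are unknown, so a gene at the bottom of the scale is described as listed at 0, and no counting interval is given.

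The titles were checked against marker genes. Dmrt1, a transcription factor of spermatogonia, lay between 36.2 and 57.3 FPKM in the 4 spermatogonia libraries and between 0.272 and 7.69 FPKM in the other 8. Ldhc, the lactate dehydrogenase of meiotic and later germ cells, was at 872 FPKM or more in the MI spermatocytes and spermatids of both genotypes. Tnp1, a transition protein of spermatids, lay between 1188 and 3301 FPKM in spermatids and at 19.6 FPKM or less elsewhere. As whole lists, the round spermatid markers separated the 3 types, with sums of 26.3 to 44.5 FPKM in spermatogonia, 961 to 1336 FPKM in MI spermatocytes and 3732 to 4559 FPKM in spermatids. The other lists did so only in part. The spermatogonia markers summed to 224 to 387 FPKM in spermatogonia but also to 257 FPKM in Tex10-deficient spermatid replicate 1, the median level of the meiotic prophase markers overlapped between spermatogonia and MI spermatocytes, and the late spermatocyte markers summed to more in spermatids (6435 FPKM or more) than in MI spermatocytes (4522 FPKM or less). For 4 of the 6 Tex10-deficient libraries and 0 of the 6 wild-type ones, the cell type field of the labels named another type than the title. When each of the 6 Tex10-deficient libraries was correlated across genes with the wild-type ones, the best match had the type of its title in 6 of 6. Replicates had a Spearman rho across genes from 0.937 to 0.971, and 10044 to 11306 genes per library reached 1 FPKM. No label ties replicates to different animals, so p-values reflect only how far these particular samples scatter, and that scatter may be technical. Libraries of different cell types may also share an animal, which no label states, while the shared fit treats all libraries as independent. Replicate 2 of the Tex10-deficient spermatids stood apart in somatic markers. The sum of 9 Leydig cell markers, from the steroid-making cells between the tubules, was 245 FPKM there against 18.1 to 75.8 FPKM in the other 3 spermatid libraries.

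Because Apoc2 carried the largest called change and no wild-type library listed it above 0, the DNA in front of its start is shown. The stretch lies between the end of Apoc4 and the start of Apoc2 and is taken from RefSeq on GRCm38.p6 (chr7:19677942-19678082, minus strand, 141 bases), read 5′ to 3′ towards the start of Apoc2. Capitals mark its CpG dinucleotides.
Apoc2 upstream: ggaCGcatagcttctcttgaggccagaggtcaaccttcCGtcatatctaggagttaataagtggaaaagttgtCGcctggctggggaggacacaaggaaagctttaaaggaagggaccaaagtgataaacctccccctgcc
It holds 3 CpG dinucleotides, against a median of 4 in 32851 windows of the same length taken in front of gene starts across the genome, and its GC content is 50.4%, against a median of 53.9%. Both strands were searched for 4 promoter motifs, and none was found. The TATA box TATAAA is held by 7.24% of all windows, and the CCAAT box, searched as these 5 letters, by 23.5%. The GC box GGGCGG is held by 28.1% and the cAMP response element TGACGTCA by 1.33%. The absence says only that these letters are not in this window.

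Tex10 (chr4:48430858-48473459, minus strand, GRCm38) checks the labels. In spermatogonia it was at 55.37 and 50.02 FPKM in the wild-type libraries and at 13.57 and 18.96 FPKM in the Tex10-deficient ones. In MI spermatocytes the levels were 63.1 and 57.5 FPKM against 10.9 and 14.6 FPKM, and in spermatids 98.8 and 116 FPKM against 31.8 and 34.8 FPKM. Every Tex10-deficient library was below every wild-type library of any of the 3 cell types. The Tex10-deficient mean was 30.9% of the wild-type mean in spermatogonia, 21.1% in MI spermatocytes and 31.0% in spermatids. Over the 3 cell types Tex10 fell by 1.83 (SE 0.145, 95% interval -2.14 to -1.52, limma adjusted p = 4.03e-05, 6 of 6 libraries lower). The test of whether the change differs between cell types was not passed (limma interaction adjusted p = 1, unadjusted p = 0.256). In the libraries titled MII, which the estimate did not use, Tex10 was at 13.8 and 27.4 FPKM in wild type and at 8.11 and 7.29 FPKM in the deficient samples. The label check is of the transcript summed over the gene, and the sources used here do not say which exons the floxed and null alleles lack. The 3′ end of Tex10 overlaps the last part of Invs, on the other strand, by 1097 bases.

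**Figure D1:**
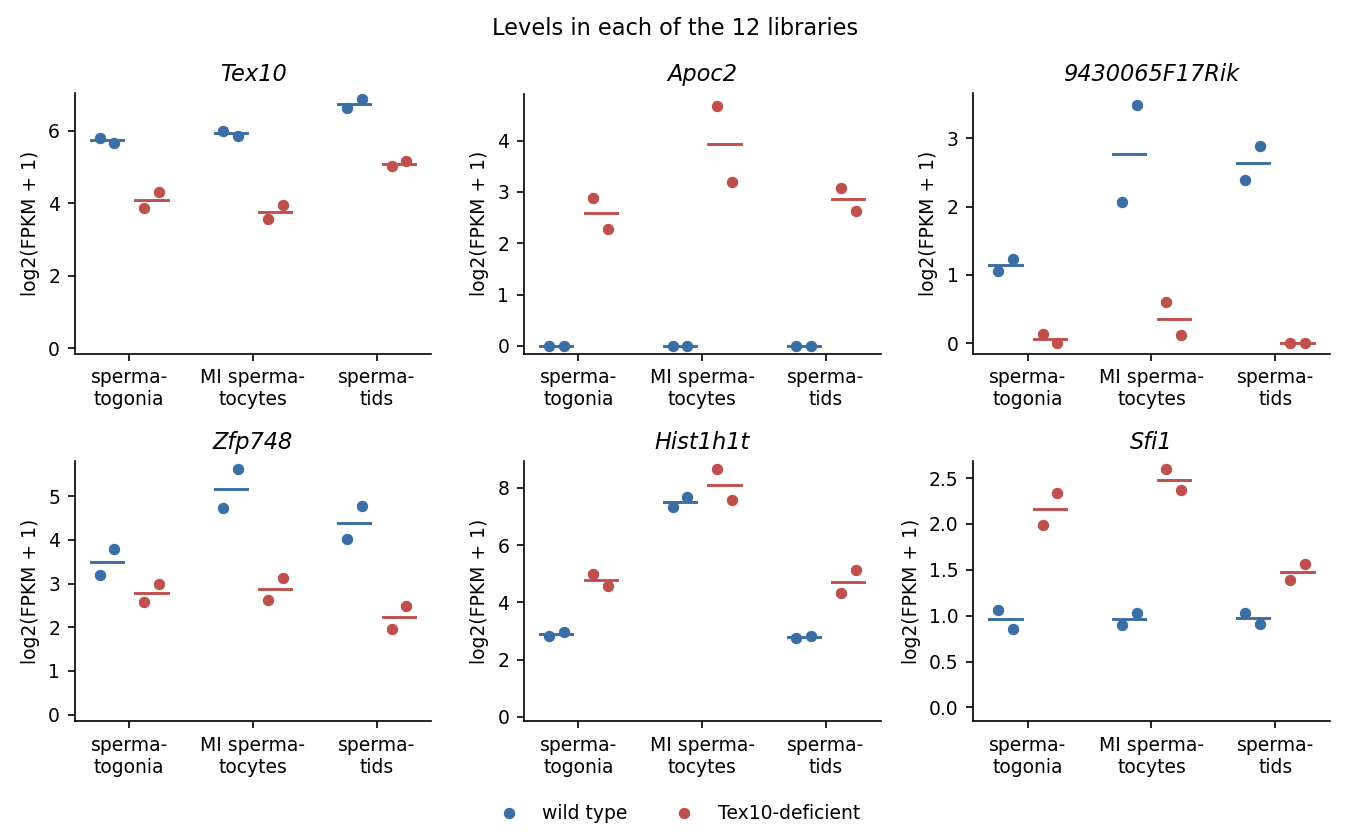
Level of 6 genes in each of the 12 libraries, as log2(FPKM + 1), by cell type. Points are libraries (blue wild type, red Tex10-deficient, 2 per group) and short lines are group means. Tex10, 9430065F17Rik and Zfp748 are lower and Apoc2 and Sfi1 higher in both Tex10-deficient libraries of each cell type, while Hist1h1t overlaps between genotypes in MI spermatocytes.

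Apoc2 (chr7:19671579-19677941, minus strand) was listed at 0 in 6 of 6 wild-type libraries. In the Tex10-deficient spermatogonia it was at 6.41 and 3.83 FPKM, in the MI spermatocytes at 24.7 and 8.15 FPKM and in the spermatids at 7.48 and 5.19 FPKM. The genotypes did not overlap in any of the 3 cell types, and the spread between replicates was widest in MI spermatocytes. The shared change was 3.12 (SE 0.277, 95% interval 2.53 to 3.72, limma adjusted p = 8.89e-05). Since the wild type is listed at 0, this value and its p depend on the 1 added before the logarithm, and no fold change is given. With 0.1 added the change was 6.27 (limma adjusted p = 5.61e-06), and with 5 added it was 1.39 (limma adjusted p = 0.0276). All 6 wild-type values tie at 0, so no scatter between wild-type replicates enters the SE. Apoc2 passed the filter through the Tex10-deficient libraries alone. The change did not pass the test of a difference between cell types (interaction adjusted p = 0.957, limma). In the MII libraries Apoc2 was listed at 0 in both wild-type samples and in Tex10-deficient replicate 1, and was at 2.06 FPKM in replicate 2, so the genotypes met there at 0.

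Apoc2 lies in a cluster with Apoe, Apoc1 and Apoc4, genes for the proteins of lipoprotein particles that are active in macrophages and liver. Of the 34 other tested genes within 1 Mb of Apoc2, 0 were called, 1 was higher and 1 lower at an unadjusted limma p under 0.05, and none was apart from wild type in all 3 cell types. Their median change was 0.09. Apoe, which encodes the main lipoprotein ligand of macrophages, was at 25.9 and 28.8 FPKM in wild-type and 187 and 54.3 FPKM in Tex10-deficient spermatogonia. In MI spermatocytes it was at 8.67 and 2.67 FPKM against 13.1 and 9.42 FPKM, and in spermatids at 0.649 and 0.805 FPKM against 0 and 2.21 FPKM, where the genotypes overlap. Its shared change of 0.98 (SE 0.383) did not pass the test (limma adjusted p = 0.497). Apoc1, a small apolipoprotein encoded next to Apoe, had a change of -0.14 (SE 0.471, limma adjusted p = 0.96).

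Macrophage RNA was measured beside Apoc2. The sum of the 14 macrophage and myeloid markers was 482 and 830.2 FPKM in the wild-type spermatogonia, where Apoc2 was listed at 0. It was 521 and 331 FPKM in the Tex10-deficient spermatogonia. In the MI spermatocytes, where Apoc2 was highest, the sum was 8.42 and 7.02 FPKM in wild type and 13.7 and 9.12 FPKM in the deficient libraries, with 2 or 3 of the 14 markers listed at 0 in each. In spermatids it ran from 10.8 to 17.1 FPKM in 3 libraries and was 45.2 FPKM in Tex10-deficient replicate 2, where Apoc2 was at 5.19 FPKM. Without that library the change of Apoc2 was 3.22 (limma adjusted p = 0.000188). Nearly the whole length of Apoc2, 6358 bases, is shared on the same strand with Gm44805, a readthrough gene of the annotation, and the sources used here do not say how fragments were divided between them. In bulk samples, more cells of a type and more RNA per cell cannot be told apart.

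9430065F17Rik (chr13:67553035-67564010, plus strand) is a lncRNA gene that starts inside the first part of the zinc finger gene Zfp748 and runs the other way. Wild-type levels were 1.08 and 1.35 FPKM in spermatogonia, 3.17 and 10.1 FPKM in MI spermatocytes and 4.24 and 6.39 FPKM in spermatids. In the Tex10-deficient samples they were 0.102 and 0 FPKM, 0.517 and 0.0861 FPKM, and 0 in both spermatid libraries. All 6 deficient libraries were below all 6 wild-type libraries, although most of these levels are low. The gene fell by 2.04 (SE 0.287, 95% interval -2.65 to -1.43, limma adjusted p = 0.018). This call rested on several groups: without the MI spermatocytes the adjusted p was 0.214, without the spermatids 0.298, and it lay between 0.0538 and 0.0772 without Tex10-deficient MI replicate 1 or 2, wild-type spermatid replicate 1 or 2, or Tex10-deficient spermatid replicate 1 or 2. In the MII libraries the gene was at 0.0591 and 0.848 FPKM in wild type and listed at 0 in both Tex10-deficient samples. The genotypes did not overlap there, but 1 wild-type library was itself close to 0.

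Zfp748 (chr13:67538641-67553830, minus strand) encodes a KRAB zinc finger protein, a family of DNA-binding proteins known for silencing repeats and genes. It overlaps 9430065F17Rik by 796 bases, and as no source states that the counting used strand, reads in the overlap cannot be assigned. Its levels were 8.18 and 12.9 FPKM in wild-type and 4.99 and 6.89 FPKM in Tex10-deficient spermatogonia. In MI spermatocytes they were 25.5 and 48.4 FPKM against 5.21 and 7.81 FPKM, and in spermatids 15.1 and 26.6 FPKM against 2.88 and 4.64 FPKM. The genotypes did not overlap in any cell type, and the Tex10-deficient mean was 56.5%, 17.6% and 18.04% of the wild-type mean in the 3 cell types in turn. The shared change of -1.73 (SE 0.281) did not pass the test, with a limma adjusted p of 0.0657. It was called under 7 of 30 alternatives, among them the 6 group means (limma adjusted p = 0.0134), the replicate block (0.0197), the fit without spermatogonia (0.0219), array weights (0.0419) and quantile normalization (0.0421). It was not called without the MI spermatocytes (limma adjusted p = 0.879) or without the spermatids (0.382). In the MII libraries the genotypes overlapped.

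The neighbouring genes were counted next, with no test between the neighbourhoods. Within 1 Mb of 9430065F17Rik, 28 other genes were tested, 0 were called, 6 were lower and 1 higher at an unadjusted p under 0.05 in limma, and the median change was -0.19. Of these 28 genes, 3 were below wild type without overlap in each of the 3 cell types, namely Zfp748, Rsl1 and Mterf3. Over all genes tested, 1.31% were below wild type in this way and 718 of 12935 were lower at an unadjusted limma p under 0.05. Rsl1, chosen after its values were seen, encodes a KRAB zinc finger protein known as a regulator of sex-limited liver genes. Its wild-type range over the 6 libraries was 1.002 to 9.72 FPKM and its Tex10-deficient range 0.321 to 0.944 FPKM (change -1.21, SE 0.295, limma adjusted p = 0.348). Within 10 Mb of Tex10 on chromosome 4, a region that a targeted allele carries along from its strain of origin, 132 other genes were tested. There 0 were called, 7 were higher and 8 lower at an unadjusted p under 0.05, and the median change was 0.02. The nearest tested neighbours were Invs, with a change of -0.26 (SE 0.17, limma adjusted p = 0.713), and Msantd3, with -0.13 (SE 0.283, limma adjusted p = 0.931).

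**Figure D2:**
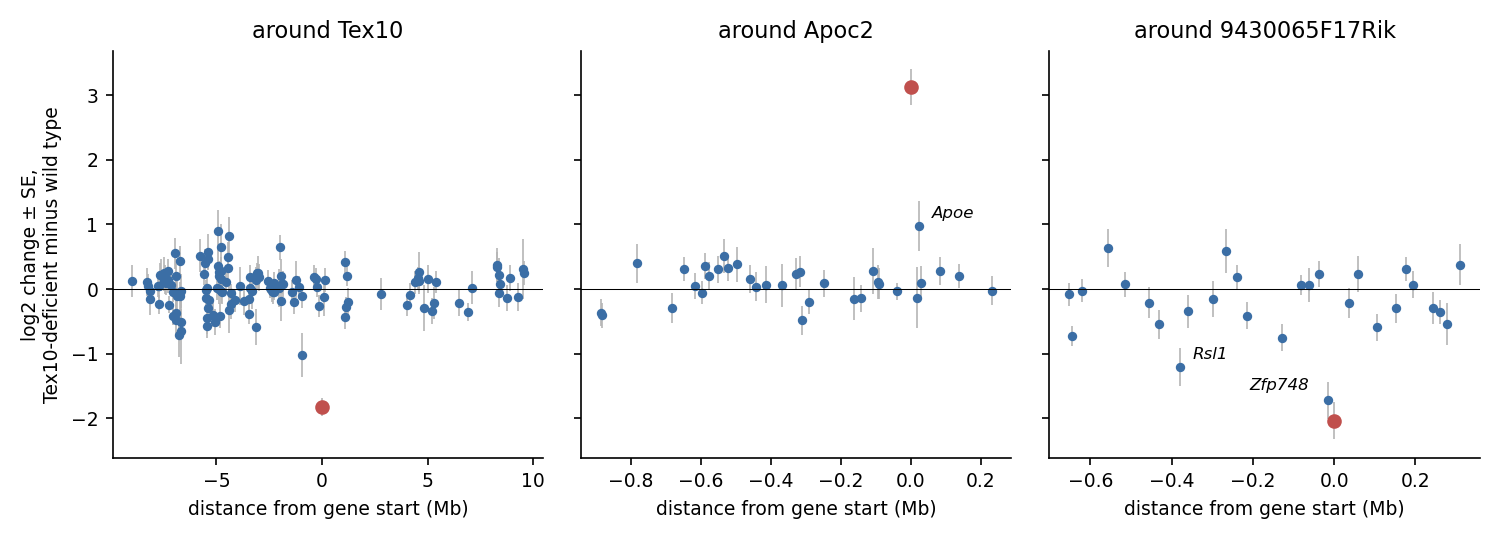
Change of each tested gene (log2, Tex10-deficient minus wild type, with its SE as a vertical line) against the distance of its start from that of Tex10, Apoc2 or 9430065F17Rik, in Mb. Red points are the 3 called genes and blue points their neighbours, of which 0 were called. The points at -1.73 and -1.21 near 9430065F17Rik are Zfp748 and Rsl1.

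Beyond the 3 calls, the genes with the next smallest p did not pass the test but are described because they lie closest to it. Hist1h1t (chr13:23695814-23696725) encodes H1t, a linker histone of spermatocytes. It was at 6.08 and 6.79 FPKM in wild-type and 31.0 and 22.7 FPKM in Tex10-deficient spermatogonia, and at 5.75 and 6.11 FPKM against 18.9 and 34.1 FPKM in spermatids. In MI spermatocytes, its peak stage, it was at 159 and 203 FPKM against 399 and 191 FPKM, so the genotypes were apart in spermatogonia and spermatids and overlapped in MI spermatocytes. The shared change was 1.48 (SE 0.248, limma adjusted p = 0.0657). Without the MI spermatocytes, it was 1.91 and was called (limma adjusted p = 0.00933). It was not called without the spermatogonia (limma adjusted p = 0.332) or without the spermatids (0.485), and 6 of 30 alternatives called it. The library protocol selected polyadenylated RNA, so the levels of histone genes are uncertain.

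Sfi1 (chr11:3131850-3193463, minus strand) encodes a centrin-binding protein of centrosomes. The wild-type libraries ran from 0.81 to 1.09 FPKM in all 3 cell types. Tex10-deficient levels were 2.98 and 4.06 FPKM in spermatogonia, 5.06 and 4.17 FPKM in MI spermatocytes and 1.63 and 1.97 FPKM in spermatids. All 6 deficient libraries lay above all 6 wild-type libraries, and the ratio of means was 3.71, 4.84 and 1.87 in the 3 cell types in turn. The shared change was 1.08 (SE 0.191, limma adjusted p = 0.0978). In the MII libraries, not used for the estimate, Sfi1 was at 1.91 and 1.39 FPKM in wild type and at 5.58 and 7.48 FPKM in the deficient samples, again without overlap. With the MII groups in the fit its change was 1.19 and was called (limma adjusted p = 0.00846). Without the MI spermatocytes it was not called (limma adjusted p = 0.963), and 2 of the 29 alternatives that tested it called it. Sfi1 shares 6104 bases on the same strand with Drg1 and 1214 bases with a processed pseudogene.

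Gm17359, a predicted gene on chromosome 3 that overlaps Fnip2 on the other strand, was at 0 and 0.243 FPKM in wild-type and 1.3 and 1.6 FPKM in Tex10-deficient spermatogonia. It was at 5.42 and 10.4 FPKM against 22.2 and 31.9 FPKM in MI spermatocytes, and at 69.1 and 104 FPKM against 135 and 158 FPKM in spermatids. The genotypes were apart in each cell type, and the change was 1.20 (SE 0.202, limma adjusted p = 0.0657). Gm17359 was called under 2 of 30 alternatives, the 6 group means (limma adjusted p = 0.044) and the replicate block (0.0197). Reep4, which encodes a membrane protein that clears endoplasmic reticulum from chromosomes in mitosis, was at 8.73 and 9.70 FPKM in wild-type and 2.84 and 2.83 FPKM in Tex10-deficient spermatogonia. It was at 27.7 and 36.5 FPKM against 15.3 and 13.4 FPKM in MI spermatocytes. In spermatids the levels were 46.0 and 53.8 FPKM against 40.1 and 36.9 FPKM, the smallest gap of the 3 cell types on the log2 scale. Its change was -0.96 (SE 0.172, limma adjusted p = 0.0984), and it was below wild type without overlap in the MII libraries too. Reep4 was called under 1 of 30 alternatives, the 6 group means (limma adjusted p = 0.023). Cox7b2, a testis form of a cytochrome c oxidase subunit, ran from 24.4 to 440.2 FPKM in wild type and from 11.8 to 289 FPKM in the deficient libraries, with a change of -0.86 (SE 0.171, limma adjusted p = 0.239). Mterf3, a factor of mitochondrial transcription and ribosome assembly, ran from 17.3 to 91.6 FPKM and from 13.5 to 67.5 FPKM, with a change of -0.73 (SE 0.148, limma adjusted p = 0.244). Both were apart between genotypes within each of the 3 cell types.

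**Figure D3:**
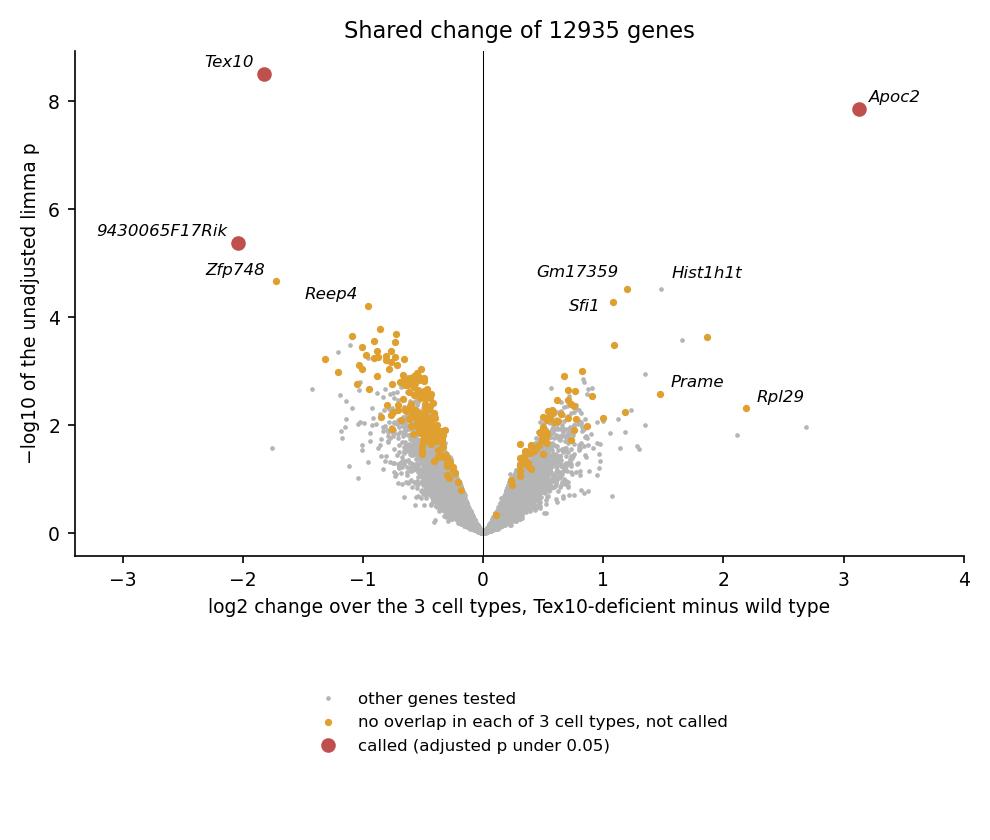
Shared change of the 12935 genes tested (x axis, log2, Tex10-deficient minus wild type) against the unadjusted limma p (y axis, −log10). Red points are the 3 called genes. Orange points are other genes whose Tex10-deficient libraries lay without overlap on the same side of wild type in each of the 3 cell types. Grey points are the rest. Tex10, Apoc2 and 9430065F17Rik stand above the rest, and Zfp748 is the next.

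Partners of TEX10 were measured at their own transcripts. Of the 6 partner genes 0 were called, and 1, Mdn1, was lower at an unadjusted p under 0.05. Their median change was -0.13, against -0.01 over all genes tested. Pelp1, the scaffold of the complex, ran from 8.00 to 15.8 FPKM in wild type and from 5.22 to 16.8 FPKM in the deficient libraries (change -0.31, 95% interval -0.76 to 0.15). For Wdr18, a propeller-domain subunit, the ranges were 2.75 to 7.88 FPKM and 2.08 to 6.08 FPKM (change -0.19, 95% interval -0.65 to 0.26). Senp3, the protease that removes SUMO from PELP1, ran from 10.3 to 25.0 FPKM and from 10.5 to 20.6 FPKM (change -0.06, 95% interval -0.40 to 0.27). Las1l, the endonuclease that cuts the ribosomal spacer, was at 10.1 and 8.52 FPKM in wild-type spermatogonia and at 0.948 and 1.07 FPKM in wild-type spermatids, and its change was 0.06 (95% interval -0.29 to 0.40). Nol9, the kinase that acts on the cut spacer, had a change of 0.20 (95% interval -0.12 to 0.52). Mdn1 was at 73.2 and 83.3 FPKM in wild-type and 66.2 and 69.8 FPKM in Tex10-deficient spermatogonia, and at 18.1 and 21.9 FPKM against 17.02 and 11 FPKM in spermatids. Its change was -0.32 (95% interval -0.63 to -0.004, limma adjusted p = 0.57), and its libraries overlapped in MI spermatocytes. The limma intervals of these 6 genes leave out a log2 change of 1 in either direction.

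**Figure D4:**
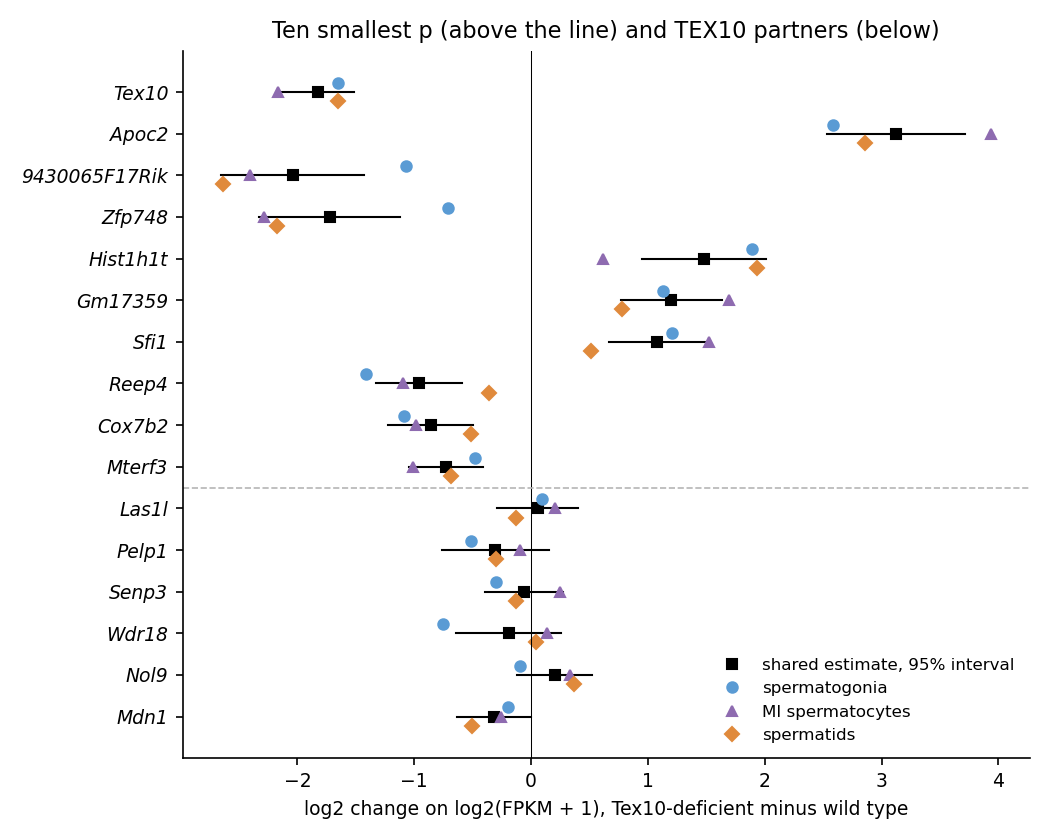
Change (log2, Tex10-deficient minus wild type) of the 10 genes with the smallest p, above the dashed line, and of the 6 TEX10 partners, below it. Black squares with lines are the shared estimate and its 95% limma interval, and coloured points are the differences of the means of 2 libraries in each cell type. The upper 10 genes have the same sign in all 3 cell types, and Las1l, Senp3, Wdr18 and Nol9 do not.

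Nucleolar genes of ribosome production were described by a general list, which is not limited to the step of the TEX10 complex. Of 40 nucleolar ribosome biogenesis genes 37 were tested and 0 were called, with 1 higher and 1 lower at an unadjusted p under 0.05. Their median change was 0.00, with 19 above 0 and 18 below. The 1 that was higher at that p was Nhp2, a protein of the RNA-guided enzyme that forms pseudouridine, with a change of 0.73 (SE 0.277, limma adjusted p = 0.473). Of 73 cytosolic ribosomal protein genes 0 were called, 4 were higher and 5 lower at an unadjusted p under 0.05, and the median change was 0.03. The largest change in that list was that of Rpl29. It was at 36.6, 20.6 and 22.8 FPKM in wild-type replicate 1 of spermatogonia, MI spermatocytes and spermatids and at 0.806, 1.45 and 3.37 FPKM in wild-type replicate 2. In the Tex10-deficient libraries it was at 68.9 and 48.6 FPKM, 33.4 and 26.7 FPKM, and 27.6 and 34.9 FPKM in the same order of cell types. Within each cell type the genotypes did not overlap, the wild-type replicates lay far apart, and the change of 2.19 (SE 0.66) did not pass the test (limma adjusted p = 0.425).

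Response genes known from cells with disturbed ribosome production gave no call. Of 20 p53 targets 14 were tested and 0 called, with 2 higher and 1 lower at an unadjusted limma p under 0.05 and a median change of 0.01. Of 17 Bcl2 family genes, which set the threshold of cell death, 13 were tested and 0 called, with 1 higher and 0 lower at that p and a median of 0.11. Of 14 Wnt targets 7 were tested, with 0 called, 0 at an unadjusted p under 0.05 in either direction and a median of -0.02. Of 14 NF-kB targets 11 were tested and 0 called, with 2 higher and 0 lower at that p and a median of 0.24, which was 0.07 without Tex10-deficient spermatogonia replicate 1. NF-kB targets are also expressed by immune cells, whose markers were counted beside them. The 10 tested T and NK cell markers had a median of 0.49 (0.21 without wild-type spermatogonia replicate 2), with 4 higher at an unadjusted p under 0.05, and their sum was 124 and 52.1 FPKM in wild-type and 195 and 148 FPKM in Tex10-deficient spermatogonia. In MI spermatocytes and spermatids that sum lay between 9.40 and 21.2 FPKM in both genotypes. The part of these cells in the NF-kB values was not tested.

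Germ cell programmes were compared in the same way. Of 13 tested spermatogonia markers 0 were called and 0 had an unadjusted p under 0.05 in limma (median -0.01). Of 21 meiotic prophase markers 0 were called, with 0 higher and 4 lower at that p (median -0.08). For 15 late spermatocyte markers the counts were 2 higher and 2 lower (median -0.13), with 1, the mitotic and meiotic kinase gene Aurka, below wild type without overlap in all 3 cell types. It is named after its values were seen, with a change of -0.49 (SE 0.144, limma adjusted p = 0.424). For 21 round spermatid markers there were 1 higher and 0 lower (median 0.02), and for 15 elongating spermatid markers 2 higher and 0 lower (median 0.00). The median of the elongating markers was 0.09 in spermatogonia, 0.41 in MI spermatocytes and -0.03 in spermatids. Their sum, which weighs abundant members more, was 15160 and 16970 FPKM in wild-type and 9146 and 13700 FPKM in Tex10-deficient spermatids. In MI spermatocytes it was 1146 and 1263 FPKM against 1677 and 1554 FPKM, and in spermatogonia the sums overlapped. These sums were not tested. Sperm flagellum genes, of which 22 were tested, had a median of 0.06 and the 21 genes of the piRNA pathway, which silences transposons, one of -0.07. In these 2 lists 0 were called, with 1 higher and 2 lower, and 1 higher and 1 lower, at an unadjusted limma p under 0.05. Over all genes 398 were higher and 718 lower at that p, and the median change was -0.01.

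A count by overlap rather than by the model listed more genes, but being listed is not a call. With so few libraries per group, genes can also separate in all 3 cell types through scatter between libraries. How many genes would do so was not tested, so the counts in either direction are not given as an excess. In 72 genes both Tex10-deficient libraries lay above both wild-type libraries in each of the 3 cell types, which is 0.557% of the genes tested, and in 169 genes, or 1.31%, both lay below in each. Of these 241 genes 3 were called and 221 had an unadjusted limma p under 0.05. The genes were chosen by separation in the same 12 libraries, so small p-values follow from the choice and add no support. Most changes were small, with a median of 0.52 among the 72 and -0.51 among the 169, and 18 reached a log2 change of 1 in either direction. A group mean of at least 5 FPKM was reached by 57 and 160 of them. No label states whether the MII libraries come from the same animals as the 12, and they give samples that neither count used. There 19 of the 72 (26.4%) were again above wild type without overlap, where 17% of all genes tested were, and 72 of the 169 (42.6%) were again below, where 18.2% of all genes were. In the opposite direction 7 of the 72 and 6 of the 169 were apart. Germ cell markers also differed between the genotypes in these MII libraries. The late spermatocyte markers summed to 365 and 1094 FPKM in wild type and to 197 and 294 FPKM in the deficient samples. For the round spermatid markers the sums were 175 and 646 FPKM against 76.4 and 139 FPKM, while those of the spermatogonia markers overlapped. The share over all genes does not account for this difference, and its part in the counts was not tested.

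Some of the 241 genes, chosen after their values were seen, show what such a gap looks like. Aurkb, the kinase of the chromosomal passenger complex, was at 22.3 and 24.4 FPKM in wild-type and 17.4 and 10.03 FPKM in Tex10-deficient spermatogonia, and at 30.4 and 31.4 FPKM against 11.9 and 9.98 FPKM in MI spermatocytes. In spermatids it was at 11.8 and 9.82 FPKM against 9.41 and 3.17 FPKM, where the gap was narrow (change -1.01, SE 0.219, limma adjusted p = 0.258). Elfn1, a synaptic adhesion protein in neurons, was at 55.9 and 67.6 FPKM in wild-type and 7.80 and 19.4 FPKM in Tex10-deficient MI spermatocytes, and at 153 and 237 FPKM against 137 and 125 FPKM in spermatids (change -1.32, SE 0.301, limma adjusted p = 0.265). Wdr5b, a close relative of the histone methyltransferase subunit gene Wdr5, ran from 2.28 to 10.6 FPKM in wild type and from 0.355 to 4.05 FPKM in the deficient libraries (change -1.09, SE 0.223, limma adjusted p = 0.244). Idh3g, the X-linked gene for a subunit of mitochondrial isocitrate dehydrogenase, was at 11.2 and 17.5 FPKM against 21.8 and 25.3 FPKM in spermatogonia. It was at 1.496 and 1.492 FPKM against 2.82 and 4.29 FPKM in MI spermatocytes and at 0.807 and 1.21 FPKM against 3.48 and 8.56 FPKM in spermatids (change 1.09, SE 0.234, limma adjusted p = 0.253). None of these 4 genes was called.

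Genes of chromosome X, which is silenced during meiosis, were listed by position. Of 471 tested X-linked genes, 0 were called, 364 had a positive and 107 a negative change, and the median was 0.16. The medians of the other chromosomes ran from -0.04 to 0.02, apart from the 8 Y-linked genes at 0.28. By cell type the X median was 0 in spermatogonia, 0.25 in MI spermatocytes and 0.19 in spermatids. Among the 71 positioned genes that were above wild type in each cell type, 10 (14.1%) were X-linked, where 3.79% of the positioned genes tested are, and among the 165 that were below, 0 were. The 10 include Prame, Slc10a3, Idh3g and Rbmx. The count by overlap set no minimum level within a cell type, and Prame was very low in all spermatogonia libraries, as given below. Of 26 X-linked housekeeping genes 25 had a positive change, with a median of 0.27 (0.17 without Tex10-deficient spermatid replicate 2), 0 called and 5 higher at an unadjusted limma p under 0.05. Single libraries carry part of these values. Without Tex10-deficient spermatid replicate 2 the X median was 0.09, without Tex10-deficient MI replicate 2 it was 0.11, and without wild-type MI replicate 2 it was 0.10. It was 0.08 without the MI spermatocytes, 0.28 without the spermatogonia, 0.27 with 0.1 added before the logarithm and 0.07 with 5 added. In Tex10-deficient spermatid replicate 2, where the Leydig cell markers summed to 245 FPKM, the housekeeping genes summed to 356 FPKM against 218 to 262 FPKM in the other 3 spermatid libraries. In the MI spermatocytes that sum was 181 and 108 FPKM in wild type and 155 and 217 FPKM in the deficient samples, which overlap. The Leydig markers there were 30.7 and 22.4 FPKM against 25.2 and 58.6 FPKM. The part of somatic RNA in the X-linked values was not tested.

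**Figure D5:**
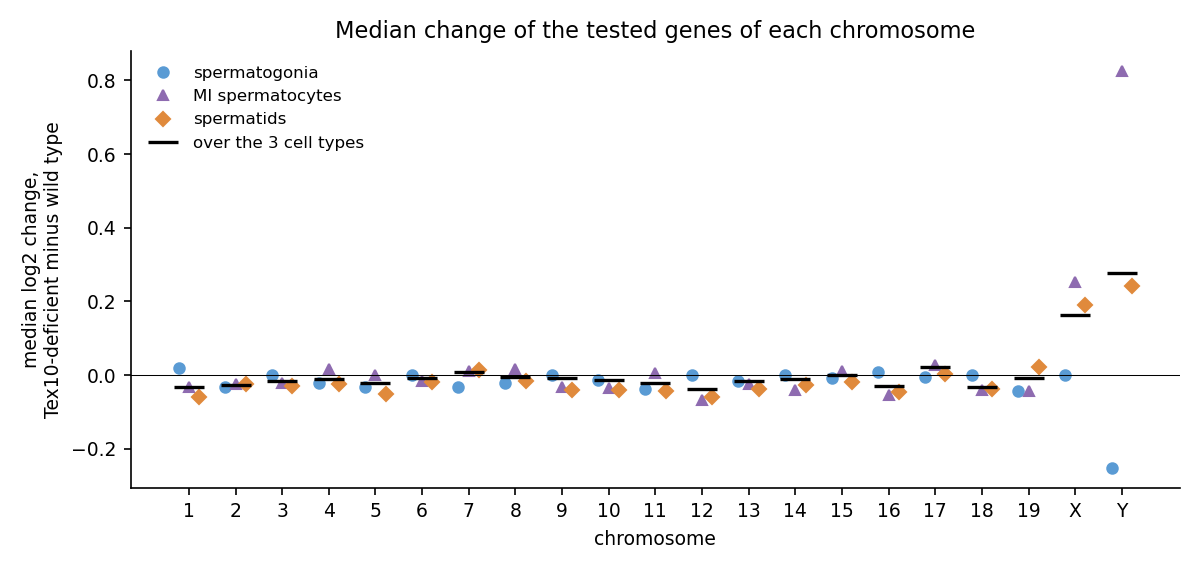
Median change (log2, Tex10-deficient minus wild type) of the tested genes of each chromosome, over the 3 cell types (black bars) and in each cell type (coloured points). The bars of the autosomes lie between -0.04 and 0.02, that of chromosome X at 0.16 and that of the 8 genes of chromosome Y at 0.28.

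Other somatic markers were described as well, since a sorted fraction can hold them. Medians were 0.22 for 14 macrophage and myeloid markers, 0.42 for 9 Leydig cell markers, 0.10 for 5 Sertoli cell markers and 0.20 for 7 peritubular and endothelial markers. In these 4 lists 0 genes were called, and 1 of the macrophage and 1 of the peritubular markers were higher at an unadjusted limma p under 0.05. These medians rested largely on Tex10-deficient spermatid replicate 2. Without it they were 0.003 for the macrophage, 0.004 for the Leydig, -0.23 for the Sertoli and 0.08 for the peritubular markers. Insl3, the peptide hormone of Leydig cells, ran from 3.89 to 33.8 FPKM in wild type and from 6.14 to 108 FPKM in the deficient libraries, with its highest level in spermatid replicate 2. Of 15 immediate early and stress genes 0 were called and 0 passed an unadjusted limma p under 0.05 (median 0.28, or 0.002 without that library and -0.06 without Tex10-deficient spermatogonia replicate 1), and of 5 tested interferon response genes the same counts held (median 0.10). Of the erythroid markers 0 were in the table. Among 14 tested choline and lipid transport genes, a list set with earlier results in view, Apoc2 alone was called, 3 were higher and 1 lower at an unadjusted limma p under 0.05, and the median was -0.03.

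The precision of these comparisons limits what could be seen. The median SE of the shared change was 0.197, which gives a median 95% limma interval of 0.421 to either side, and for 91.6% of the genes the interval lay within a log2 change of 1 in both directions. In 52 genes the estimate reached a log2 change of 1.

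Whether changes differed between the cell types was tested over all genes by the interaction of genotype and cell type. This test called 0 genes (0% of those tested), while 716 had an unadjusted limma p under 0.05. The smallest adjusted p was 0.0719, for Prame, an X-linked gene of a family expressed in germ cells and tumours. Prame was at 0.581 and 0.735 FPKM in wild-type and 14.4 and 20.8 FPKM in Tex10-deficient MI spermatocytes. In spermatids it was at 19.2 and 16.4 FPKM against 31.5 and 32.0 FPKM, and in spermatogonia at 0.155 FPKM or less in all 4 libraries. In wild type its level was higher at each later stage, and the libraries of the 2 genotypes were furthest apart in MI spermatocytes. Its shared change of 1.48 (SE 0.406) did not pass the test (limma adjusted p = 0.366). It was called under 1 of 30 alternatives, the average of the contrasts in 6 group means (limma adjusted p = 0.00423).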

How the data were processed

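Polyadenylated RNA of sorted testis cells was sequenced as bulk libraries, per the labels' protocols. The submitters' processing notes name Cufflinks 2.2.1, STAR 2.7.6a, cutadapt, Trim Galore 0.6.3 and FastQC 0.10.1, and the mouse build mm10. The authors deposited 1 table of 13101 genes whose values are FPKM with 1 added, as the smallest value is 1. The added 1 was subtracted, after which 3.33% of values were 0, and 1 gene with a letter in a cell was left out. FPKM totals of 187713 to 533859 say nothing of depth. The sources used here do not give the sorting or the authors' gene filter.

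Tested genes had 1 FPKM or more in 2 or more of the 12 libraries. The limma 3.58.1 package of R 4.3.3 (lmFit, eBayes with a trend) was run on log2(FPKM + 1), with cell type as an additive block and 8 residual degrees of freedom. P-values were Benjamini-Hochberg adjusted over all genes. The interaction was an F test in a fit of 6 group means. No count test was used, since reads cannot be recovered from FPKM. Positions of 12572 genes came from GENCODE M21 (GRCm38) by symbol. The steps were tested on simulated data.

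The 12 libraries and the gene lists were chosen with earlier results of these data known. The rule for named genes took Tex10, up to 15 called rises and 15 called falls with separated libraries in each cell type and a group mean of at least 5 FPKM, the 10 smallest p, the 5 smallest interaction p, called list members, all TEX10 partners, and up to 3 abundant markers per list. Genes outside it were picked with their values in view or named as neighbours of the called genes. Nhp2, Rpl29, Slc10a3 and Rbmx were also picked with their values in view, though not marked so in place. Lists are described by counts and medians beside those of all genes. Deviations of same-numbered wild-type and Tex10-deficient libraries were correlated at 0.205 in spermatogonia, 0.005 in MI spermatocytes and -0.127 in spermatids, so the numbers were not taken to pair the genotypes, and nothing in the labels pairs them. Alternatives were other pseudocounts, filters, scalings and variance models, other blocks, the MII groups, the cell type field, and each library or cell type left out. Python 3.11.15, pandas 2.3.3 and matplotlib 3.10.9 were used for tables and figures.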

Additional observations from a re-analysis of the deposited data

Results flagged for a closer look

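Of the 5 genes with the smallest interaction p, 4 had both Tex10-deficient libraries above both wild-type libraries in one cell type and below them in another. Over all 12935 genes tested, 1376 (10.6%) were apart in opposite directions in this way. The 4 genes were picked by the limma interaction test itself, and none passed it after adjustment. Rnf125, which encodes a ubiquitin ligase, differed by 1.11 (log2, Tex10-deficient minus wild type) in spermatogonia and by -1.65 in MI spermatocytes, and was also below wild type in spermatids, by -0.31 (interaction adjusted p = 0.0833). Hist1h2aa, a testis histone gene, differed by 3.06 in spermatids, where it is low, and by -1.24 in spermatogonia, where its wild-type levels were 10550 and 11320 FPKM (interaction adjusted p = 0.111). Ribc1, an X-linked gene of a protein of flagellar microtubules, differed by 2.08 in MI spermatocytes and by -0.34 in spermatogonia (interaction adjusted p = 0.155). Pxdc1 differed by 0.9995 in spermatogonia and by -2.32 in MI spermatocytes (interaction adjusted p = 0.155).

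For 3 genes a signal appeared in the MII libraries, which the shared estimate does not use, above the wild-type libraries of that fraction. The mean level in the Tex10-deficient MII libraries was 1.03 FPKM for Apoc2, which came from replicate 2 alone (2.06 FPKM), as replicate 1 and both wild-type libraries were listed at 0. It was 13.7 FPKM for Hist1h1t against 5.97 FPKM, and 6.53 FPKM for Sfi1 against 1.65 FPKM in wild type.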

How the results depend on the processing

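Tex10 was called under 30 of 30 alternatives, with changes from -2.22 to -1.63. Apoc2 was called under 29 of 30, and its change ran from 1.39 to 6.27 over the alternatives. It was lost only with the cell type taken from the field (2.10, limma adjusted p = 0.123). 9430065F17Rik was called under 19 of 30. Beside the losses given with its result, it was lost with 5 added before the logarithm, with the MII groups and with the cell type field (adjusted p = 0.218, 0.0774 and 0.123). With the libraries of each genotype and replicate number averaged over cell types, all 3 genes were called. The limma adjusted p was then 0.0156 for Tex10, 0.00628 for Apoc2 and 0.0453 for 9430065F17Rik. With the replicate number as a random effect it was 0.0451 for 9430065F17Rik. Against the 3 genes called in the shared fit, there were 5 with array weights, 10 with the average of the contrasts in 6 group means, 5 without spermatogonia and 5 without MI spermatocytes. With each library left out in turn the count ran from 2 to 5. The replicate block gave 5 calls, and its numbers pair no samples by label. Against 0 calls of the interaction, there was 1 with 0.1 added, 2 with quantile normalization, 1 without the trend, 541 with the cell type field and 2 with the replicate number as a random effect, and 0 to 1 with a library left out. Signs turned for Gm17359 with the field (-0.15), Las1l without MI spermatocytes (-0.021), Senp3 without spermatogonia (0.058) or wild-type spermatid replicate 2 (0.0095, with -0.17 to 0.0095 over the libraries left out), and Wdr18 with the MII groups (0.017) or without spermatogonia (0.089), none of which were called, and the cause was not tested. List medians moved as well. Apart from the cell type field, they ran from 0.0038 to 0.65 (Leydig), -0.073 to 0.54 (macrophage), -0.23 to 0.31 (Sertoli), 0.082 to 0.30 (peritubular), 0.13 to 0.85 (T and NK cell), -0.25 to 0.40 (elongating spermatid) and 0.075 to 0.28 (X-linked). With the field the 4 somatic medians were 2.22, 1.27, 1.095 and 2.28 in the order Leydig, macrophage, Sertoli, peritubular. Depth is unknown, so low levels carry an unmeasured counting error.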

Other observations

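Some genes followed the replicate number. In wild type, 18 genes were higher by a log2 of at least 1 in replicate 1 than in replicate 2 in each of the 3 cell types, and 4 were lower by that much. Rpl29, Rpl34, Vim, which encodes the intermediate filament protein vimentin, and Aldh1a1, which encodes a retinaldehyde dehydrogenase, were among the 18. In the Tex10-deficient samples 13 genes were higher and 9 lower in replicate 1 by that measure. These genes were chosen after their values were seen. Deviations of same-numbered libraries from their group means were correlated across genes between cell types of wild type, at 0.144 to 0.229, and between MI spermatocytes and spermatids of the deficient samples, at 0.42, while the other pairs of deficient cell types gave 0.0879 and -0.082. These correlations are across genes, which are not independent replicates.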
